A study of Mus musculus with 40 samples.

Results

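Interferon-stimulated genes were examined in the dorsal hippocampus of young and aging mice as 39 genes out of the 20953 in the deposited table. The genes were chosen by symbol, as members of the interferon response, with their levels in these 6 groups of mice already known. Their differences between the groups are therefore given here as a description and support nothing on their own. All 39 symbols were found and all 39 passed the filter on low values, a mean of at least 0.5 RPKM over the 40 libraries. RPKM is a read number divided by the exon length of the gene and by the total of mapped reads. It adjusts for length and depth only, and counts of calls over all genes changed with other scalings, as given below. In young mice alone, 8 of the 39 genes had a mean under 0.5 RPKM, so these passed only through the old mice, in which they were higher.

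Mice were killed 60 minutes after object location memory (OLM) training, in which an animal explores a pair of identical objects, or were taken from the homecage. Young wildtype mice (2 to 4 months) gave 6 homecage and 6 OLM libraries, named YWT-HC and YWT-BV. Old wildtype HDAC3+/+ mice (18 to 20 months) gave 6 and 6 (OWT-HC and OWT-BV), and their old HDAC3flox/flox littermates gave 8 and 8 (H3F-HC and H3F-BV). HDAC3flox/flox mice carry loxP sites in both copies of Hdac3, which encodes a histone deacetylase. According to the methods of the study, both old genotypes received AAV-CaMKII-Cre in the dorsal hippocampus before behaviour, so the old wildtype mice were infused too. The CaMKII promoter drives Cre in excitatory neurons, and other cells of the tissue keep HDAC3. The young mice came from an earlier study of the same laboratory, so age, study and viral infusion cannot be told apart in any difference between old and young. The methods count the animals of a group as its biological replicates, with 1 library to a mouse here. The study used both sexes, and sex was not a covariate.

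Interferons are cytokines that cells release when they sense viral nucleic acid or when lymphocytes are activated. Type I interferons (alpha and beta) bind a receptor whose signal reaches a complex holding STAT2 and IRF9, which binds the interferon-stimulated response element (ISRE) of target genes. Type II interferon (gamma), made mainly by T and NK cells, has a receptor of its own and acts through the gamma-activated site (GAS). The products of the target genes degrade viral RNA, block viral entry and assembly, attack the vacuoles of intracellular pathogens, or amplify the response. In the brain, microglia, astrocytes, endothelial cells and neurons can all respond to interferons.

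The promoters of 5 members are shown because these windows hold matches to the element named above. Each runs 5′ to 3′ from 250 bases before to 50 after the start of the gene, as RefSeq gives it for GRCm38.p6, and capitals mark the matches to the ISRE core, searched on both strands as GAAA, any 2 bases and GAAA again.
Isg15, chr4:156200769-156201068, reverse strand: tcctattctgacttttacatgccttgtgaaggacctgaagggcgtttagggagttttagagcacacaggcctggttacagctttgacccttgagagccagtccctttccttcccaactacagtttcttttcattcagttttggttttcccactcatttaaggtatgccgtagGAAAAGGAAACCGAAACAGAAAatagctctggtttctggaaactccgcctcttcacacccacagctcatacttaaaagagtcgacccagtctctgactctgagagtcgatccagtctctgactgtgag
Ifit3, chr19:34583279-34583578, forward strand: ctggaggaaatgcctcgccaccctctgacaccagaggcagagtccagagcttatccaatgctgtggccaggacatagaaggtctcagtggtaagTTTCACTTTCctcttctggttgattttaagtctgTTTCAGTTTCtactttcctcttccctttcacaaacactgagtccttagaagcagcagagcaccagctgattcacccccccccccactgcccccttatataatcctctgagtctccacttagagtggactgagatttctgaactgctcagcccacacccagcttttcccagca
Bst2, chr8:71537423-71537722, reverse strand: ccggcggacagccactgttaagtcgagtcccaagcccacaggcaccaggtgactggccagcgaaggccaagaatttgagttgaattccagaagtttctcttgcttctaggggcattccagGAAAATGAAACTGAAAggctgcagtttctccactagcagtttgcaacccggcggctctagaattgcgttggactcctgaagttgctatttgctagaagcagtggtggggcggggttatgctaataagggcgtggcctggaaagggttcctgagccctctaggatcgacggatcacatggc
Gbp2, chr3:142620413-142620712, forward strand: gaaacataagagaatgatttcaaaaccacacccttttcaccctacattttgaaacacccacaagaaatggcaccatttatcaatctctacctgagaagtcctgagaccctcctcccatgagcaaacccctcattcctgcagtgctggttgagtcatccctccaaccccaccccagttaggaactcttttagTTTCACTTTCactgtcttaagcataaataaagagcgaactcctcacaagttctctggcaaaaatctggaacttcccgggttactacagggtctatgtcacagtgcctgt
Irgm1, chr11:48871371-48871670, reverse strand: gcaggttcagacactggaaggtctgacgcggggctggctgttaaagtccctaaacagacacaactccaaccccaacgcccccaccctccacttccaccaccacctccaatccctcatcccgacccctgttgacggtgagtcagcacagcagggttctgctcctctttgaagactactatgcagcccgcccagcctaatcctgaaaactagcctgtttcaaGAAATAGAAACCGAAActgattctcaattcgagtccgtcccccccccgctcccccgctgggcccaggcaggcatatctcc
Isg15 holds 3 matches that overlap one another, starting 78, 72 and 66 bases before the gene start. Ifit3 holds 2 separate matches, at 156 and 122 bases before the start. Bst2 and Irgm1 hold 2 overlapping matches each, and Gbp2 holds 1, at 59 bases before the start. Promoter windows were given for 28 of the 39 members. The ISRE core was found in 17 of the 28 (60.7%), against 1079 of 27025 genes (3.99%) in the whole table. GAS, searched as TTCNNNGAA, which reads the same on both strands, was found in 8 of the 28 (28.6%), against 9.55% of all genes. Of the 10 GAS matches in member windows, 1 overlapped an ISRE core match. A match is a run of letters and not a measured binding site. The members were chosen by symbol as genes of the interferon response. Their shares therefore reflect that choice, and nothing is read from the difference from all genes.

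The libraries held an estimated 12.7 to 38.9 M reads (median 25.3 M). The files hold no read counts, and this estimate rests on the steps between the low values of 735 short RNA genes. Hdac3 ran from 13.1 to 18.0 RPKM in H3F-HC and from 11.5 to 24.2 RPKM in H3F-BV, below the 27.6 to 33.1 RPKM of the old wildtype mice, with no overlap between the genotypes. Neuronal markers were present in all 40 libraries, with Slc17a7, the vesicular glutamate transporter of excitatory neurons, at 315 to 576 RPKM. Prox1, a marker of dentate granule cells, was lowest in H3F-HC-121B (0.883 RPKM) among homecage HDAC3flox/flox mice and in H3F-BV-108D (5.14 RPKM) among trained ones. Markers of choroid plexus varied widely, with a summed level from 5.65 to 9259.6 RPKM.

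One old library stood apart. The library labelled OWT-HC-110A was the lowest of its group in 39 of the 39 genes. For 37 genes it lay within the range of the 12 young mice, and for Stat2 and Oas3 it lay just above. The difference was not limited to these genes. Another 497 genes were higher in each of the other 27 old libraries than in any young library, and OWT-HC-110A lay with the young libraries for 284 of them, with the old ones for 58 and between the ranges for 155. Of 51 genes that were lower in the other 27 old libraries, it lay with the old libraries for 41. The labels give it as an old wildtype homecage mouse, and whether that label is right was not tested, so every OWT-HC value that includes it carries this doubt. The main counts of calls and medians of the 39 genes together are given with and without this library where they changed. Other values include it unless stated.

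The level of the 39 genes as a whole was taken for each mouse as the mean of log2(RPKM + 0.5) over the genes, and is given with no test. It ran from 0.56 to 1.28 in YWT-HC (median 0.87) and from 0.66 to 1.01 in YWT-BV (median 0.70). In OWT-HC it was 1.03 in OWT-HC-110A and 4.28 to 5.60 in the other 5. In OWT-BV it ran from 2.50 to 4.92 (median 3.54). H3F-HC mice ran from 2.95 in H3F-HC-112B to 5.99 in H3F-HC-117B (median 4.66). H3F-BV mice ran from 2.47 in H3F-BV-102D to 5.11 in H3F-BV-113D (median 3.32). Old mice other than OWT-HC-110A all lay above the young mice, and homecage and trained mice of the same genotype overlapped.

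**Figure D1:**
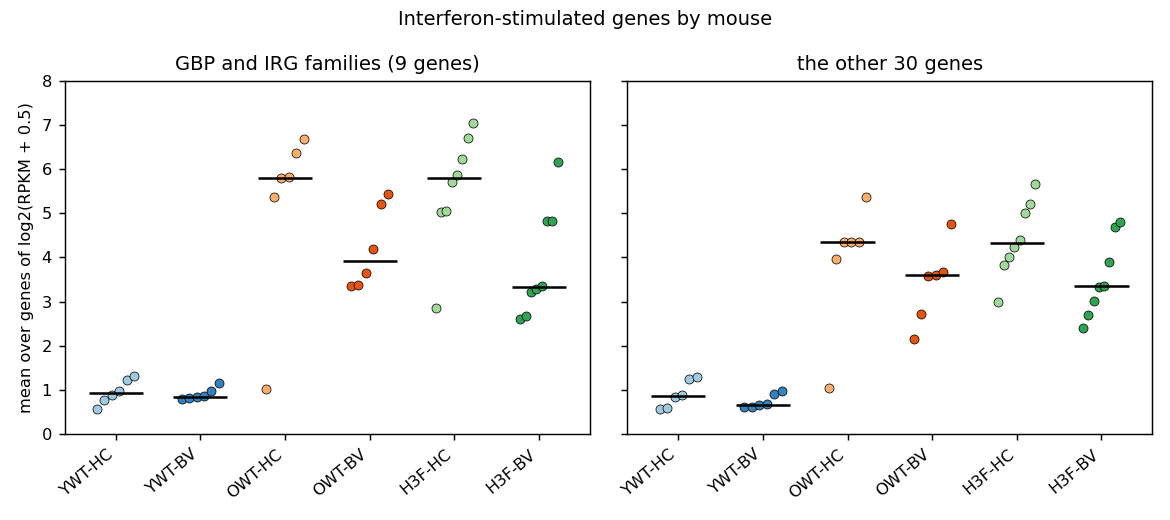
Mean level of the interferon-stimulated genes in each mouse, as the mean over genes of log2(RPKM + 0.5), for the 9 guanylate-binding proteins and immunity-related GTPases (GBP and IRG, left) and the other 30 genes (right). Points are mice, lines are group medians. Apart from OWT-HC-110A at 1.02 and 1.03, old mice lie above young mice in both panels. The medians of the trained old groups lie below those of the homecage groups. Single trained mice reach above the homecage median, except in old wildtype mice on the left. There the highest trained mouse (5.44) lies below the homecage median (5.81).

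The spread between mice was much wider in old than in young groups. The SD of log2(RPKM + 0.5) had a median over the 39 genes of 0.28 in YWT-HC and 0.19 in YWT-BV, against 0.09 and 0.11 over all 14173 genes tested. It was 1.68 in OWT-HC, 0.94 in OWT-BV, 0.96 in H3F-HC and 0.97 in H3F-BV, against 0.15 to 0.26 over all genes. The genes tended to rank the mice alike. OWT-HC-107A was the highest of its group in 32 of 39 genes, OWT-BV-103C in 35 and H3F-HC-117B in 38, while OWT-BV-104C was the lowest in 32, H3F-HC-112B in 38 and H3F-BV-102D in 32. In bulk tissue, a change in the number of cells of a type and a change in RNA per cell cannot be told apart.

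**Figure D2:**
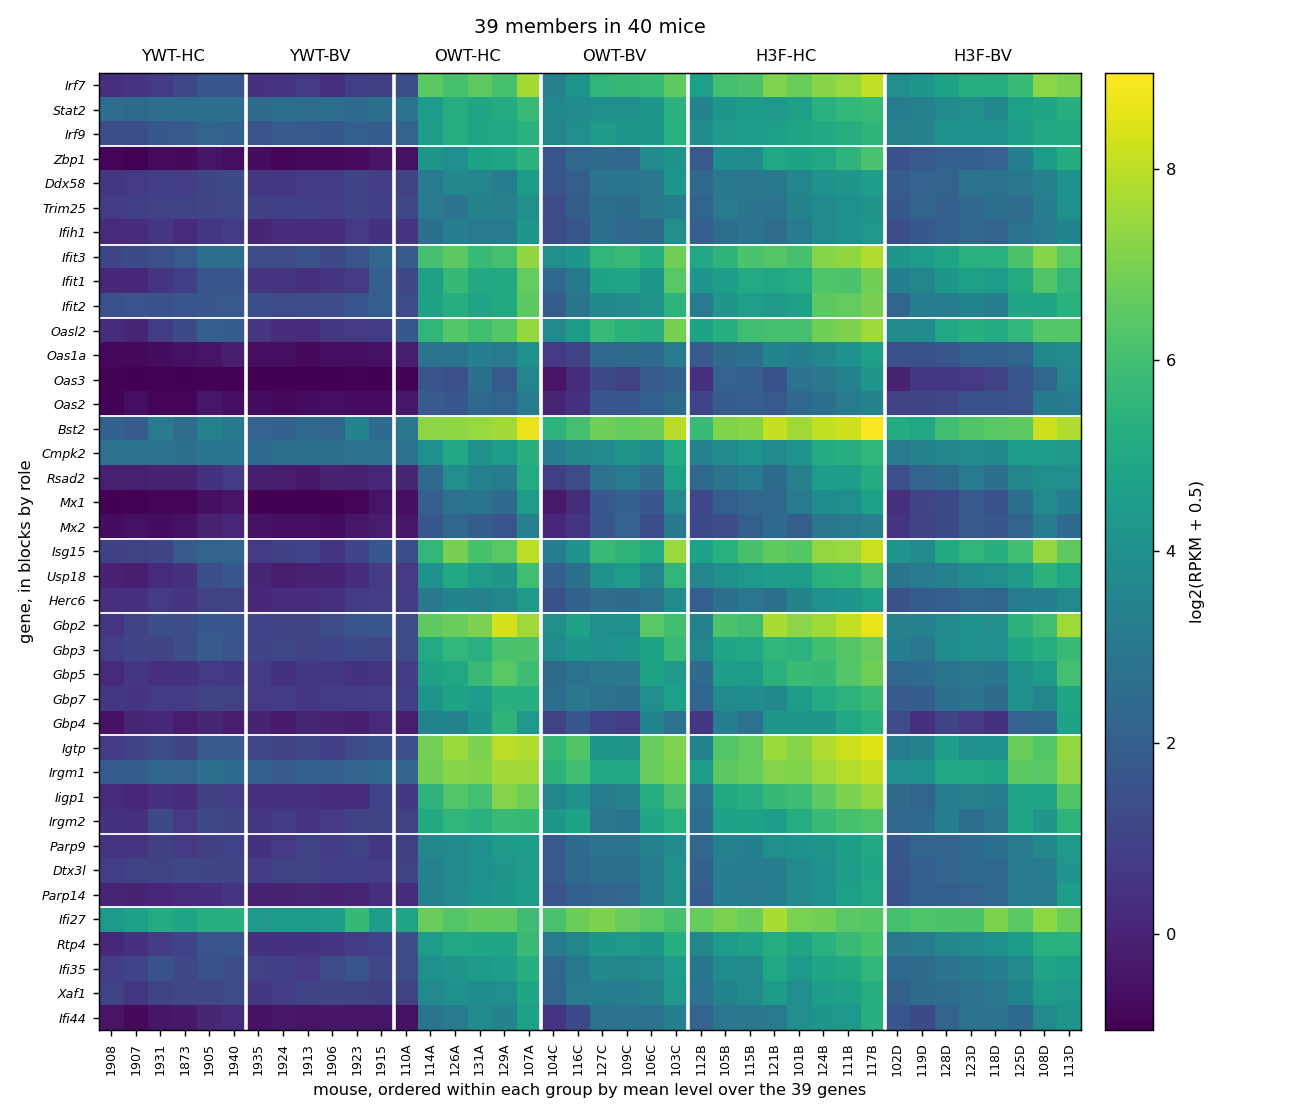
Heat map of the 39 genes (rows, in blocks by role) in the 40 mice (columns, ordered within each group by mean level), coloured by log2(RPKM + 0.5). The young columns are dark in most rows and resemble the column of OWT-HC-110A, while Ifi27 is bright in every column.

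The transcription factors and signal transducers come first, since they relay the signal. Irf7, which encodes the factor that amplifies type I interferon transcription (chr7:141262706-141266481 of GRCm38), ran from 0.792 to 2.66 RPKM (median 1.17) in the 12 young mice. Irf7 ran from 2.17 to 199.8 RPKM (median 78.6) in OWT-HC and from 9.78 to 91.6 RPKM (median 49.2) in OWT-BV mice. The Irf7 levels of H3F-HC mice ran from 24.5 to 265 RPKM (median 117.8), and those of H3F-BV mice from 14.5 to 151 RPKM (median 37.5). Its level in OWT-HC-110A lay among the young values and every other old mouse exceeded every young mouse. The log2 fold change of (RPKM + 0.5) between old and young wildtype was 4.69 ± 0.83 (standard error) in the homecage and 4.55 ± 0.43 after OLM. Stat2, which encodes a subunit of the type I complex, ran from 5.06 to 5.94 RPKM (median 5.60) in young mice. Stat2 ran from 6.60 to 52.7 RPKM (median 32.5) in OWT-HC and from 12.1 to 42.1 RPKM (median 15.2) in OWT-BV mice. The Stat2 levels of H3F-HC mice ran from 11 to 54.4 RPKM (median 23.4), and those of H3F-BV mice from 8.92 to 38 RPKM (median 13.9). Old and young differed less than for Irf7, by 2.12 ± 0.37 and 1.60 ± 0.23 on the log2 scale, and Stat2 stood above 5 RPKM in every young mouse. Irf9, the DNA-binding subunit of that complex, had medians of 2.93 RPKM in young mice, 29.6 and 18.9 RPKM in old wildtype, and 26.7 and 17.1 RPKM in old HDAC3flox/flox mice, homecage before OLM.

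Cytosolic sensors detect foreign or misplaced nucleic acid. Zbp1, a sensor of Z-form nucleic acid that can trigger necroptosis, was close to 0 in young mice, from 0.0186 to 0.240 RPKM (median 0.107). Zbp1 ran from 0.183 to 41.9 RPKM (median 22.2) in OWT-HC and from 2.52 to 16.4 RPKM (median 4.87) in OWT-BV mice. The Zbp1 levels of H3F-HC mice ran from 2.99 to 69.7 RPKM (median 29.2), and those of H3F-BV mice from 2.36 to 35 RPKM (median 3.79). The trained groups of both genotypes had medians several-fold below those of the homecage groups, yet the ranges overlapped. Ddx58 encodes RIG-I, a sensor of viral RNA, and ran from 1.004 to 1.79 RPKM (median 1.21) in young mice. For Ddx58 the lowest, median and highest values were 1.49, 10.2 and 21.5 RPKM in OWT-HC and 2.63, 6.80 and 18.4 RPKM in OWT-BV mice. Those of Ddx58 were 4.99, 9.51 and 23.8 RPKM in H3F-HC and 3.13, 6.44 and 16.6 RPKM in H3F-BV mice. Ifih1, which encodes the RNA sensor MDA5, and Trim25, a ubiquitin ligase that activates RIG-I, had young medians of 0.731 and 1.34 RPKM. The highest old values were 19.8 RPKM for Ifih1 and 17.6 RPKM for Trim25, both in H3F-HC. Old minus young differences of the 4 sensors in the homecage had a median of 2.34 on the log2 scale.

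Ifit proteins bind viral RNA and block its translation. Ifit3, whose product stabilizes IFIT1, ran from 1.61 to 5.67 RPKM (median 2.24) in young mice. Ifit3 ran from 3.20 to 163 RPKM (median 66.3) in OWT-HC and from 14.7 to 112.4 RPKM (median 42.3) in OWT-BV mice. The Ifit3 levels of H3F-HC mice ran from 31 to 223 RPKM (median 76.2), and those of H3F-BV mice from 18.9 to 146 RPKM (median 40.9). Among the young mice, YWT-HC-1905, YWT-HC-1940 and YWT-BV-1915 lay above the rest, and all stayed below every old mouse but OWT-HC-110A. Ifit1 ran from 0.601 to 3.44 RPKM (median 0.969) in young mice. For Ifit1 the lowest, median and highest values were 1.70, 32.9 and 97.6 RPKM in OWT-HC and 4.90, 23 and 84.7 RPKM in OWT-BV mice. Those of Ifit1 were 18.4, 35.1 and 115.4 RPKM in H3F-HC and 9.39, 23.9 and 77.4 RPKM in H3F-BV mice. Its old minus young difference was 3.86 ± 0.74 in the homecage and 3.55 ± 0.56 after OLM. Ifit2 was 1 of 2 genes for which an old mouse other than OWT-HC-110A overlapped the young range, with 3.31 RPKM in OWT-BV-104C and 3.42 RPKM in the highest young mouse.

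**Figure D3:**
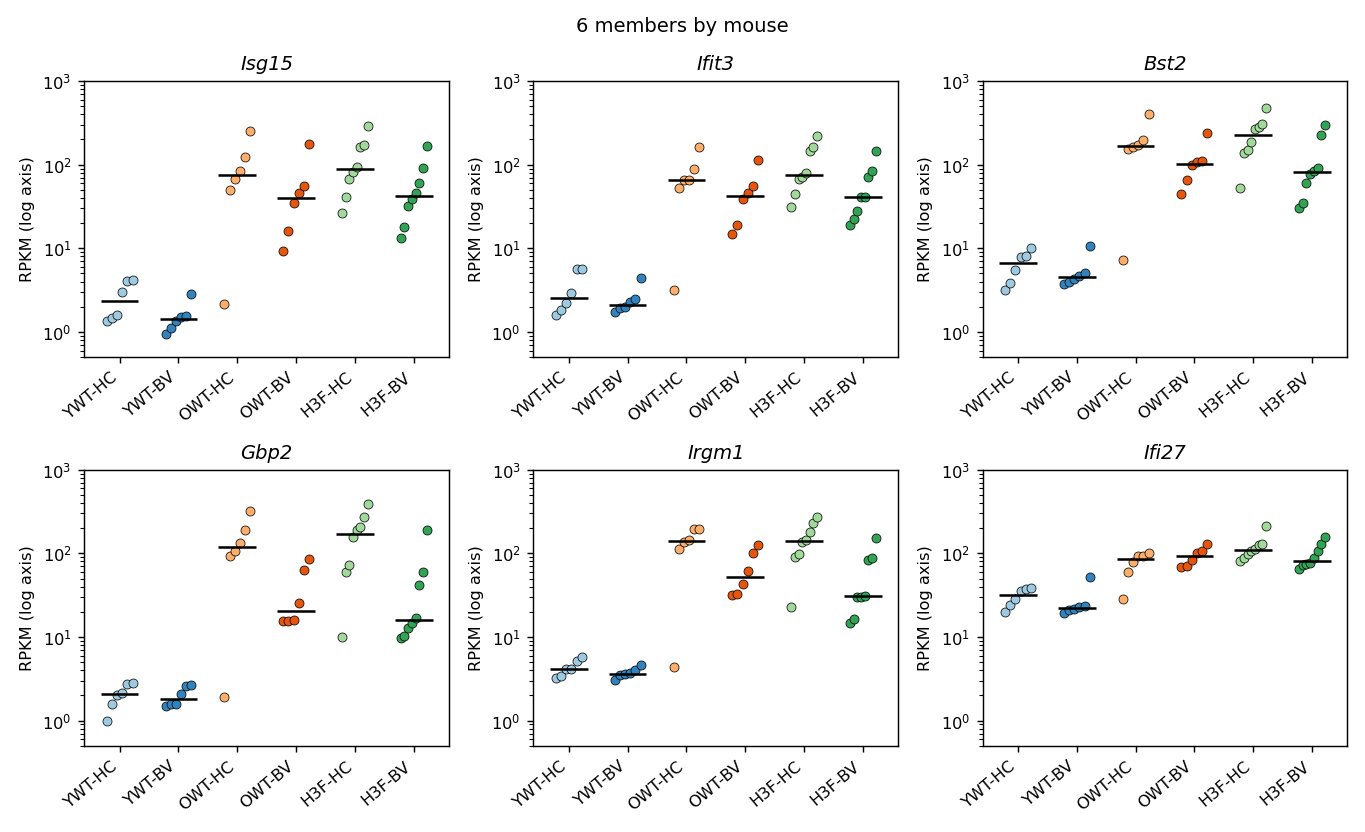
RPKM in each mouse, on a log axis, of Isg15, Ifit3, Bst2, Gbp2, Irgm1 and Ifi27. Points are mice, lines are group medians. In the first 5 panels the old mice other than OWT-HC-110A lie above the young ones, and Gbp2 and Irgm1 have trained medians far below the homecage medians, while Ifi27 varies over a narrower range.

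Oligoadenylate synthetases make the second messenger that activates RNase L, which cuts viral RNA. Oasl2, a relative of the family, was the member of this group with the highest mean and ran from 0.552 to 3.50 RPKM (median 1.06) in young mice. Oasl2 ran from 2.87 to 171 RPKM (median 71.8) in OWT-HC and from 13.3 to 123.5 RPKM (median 40.1) in OWT-BV mice. The Oasl2 levels of H3F-HC mice ran from 26.3 to 184 RPKM (median 65.8), and those of H3F-BV mice from 13.8 to 82.3 RPKM (median 36.6). Its old minus young difference, 4.74 ± 0.40 after OLM, was the largest of the 39 genes in that comparison. Oas1a ran from 0.0821 to 0.385 RPKM (median 0.147) in young mice. For Oas1a the lowest, median and highest values were 0.355, 7.32 and 17 RPKM in OWT-HC and 1.14, 4.80 and 8.27 RPKM in OWT-BV mice. Those of Oas1a were 2.93, 10.1 and 25 RPKM in H3F-HC and 2.26, 3.72 and 12.4 RPKM in H3F-BV mice. Of its 50-base stretches, 57.6% also occur in Oas1g, and since reads that matched several places were removed, its RPKM counts only part of its transcript. Oas2 and Oas3 were lower still in young mice, with highest values of 0.277 and 0.0239 RPKM, against medians of 3.61 and 2.83 RPKM in OWT-HC. At such young levels, the added 0.5 understates the fold change.

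Among other antiviral effectors, Bst2, which encodes tetherin, a membrane protein that holds budding virions on the cell, had the highest mean of all 39 genes. It ran from 3.20 to 10.8 RPKM (median 4.86) in young mice. Bst2 ran from 7.25 to 401 RPKM (median 168) in OWT-HC and from 44.1 to 241 RPKM (median 102.1) in OWT-BV mice. The Bst2 levels of H3F-HC mice ran from 53 to 475 RPKM (median 229), and those of H3F-BV mice from 30.3 to 298 RPKM (median 80.8). The old minus young difference was 4.19 ± 0.77 in the homecage and 4.12 ± 0.35 after OLM. Cmpk2, a mitochondrial nucleotide kinase, had the smallest old minus young difference of these effectors (1.52 ± 0.34 in the homecage) and ran from 5.10 to 6.81 RPKM (median 6.15) in young mice. For Cmpk2 the lowest, median and highest values were 6.22, 19.9 and 39.2 RPKM in OWT-HC and 9.25, 13.7 and 34.1 RPKM in OWT-BV mice. Those of Cmpk2 were 10.4, 17.7 and 47.6 RPKM in H3F-HC and 8.42, 12.7 and 23.6 RPKM in H3F-BV mice. Rsad2, the neighbour of Cmpk2 on chromosome 12 that encodes the antiviral enzyme viperin, had a young median of 0.458 RPKM and a highest old value of 35.4 RPKM. Mx1 and Mx2, dynamin-like GTPases that are defective in many inbred mouse strains, had young medians of 0.0353 and 0.181 RPKM and H3F-HC medians of 6.30 and 4.36 RPKM. Mx2 was the other gene with an overlap, since OWT-BV-104C (0.567 RPKM) lay just under the highest young mouse (0.573 RPKM).

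Isg15 encodes a ubiquitin-like modifier that is joined to proteins during the response. It ran from 0.951 to 4.20 RPKM (median 1.53) in young mice. Isg15 ran from 2.18 to 254 RPKM (median 75.9) in OWT-HC and from 9.40 to 176 RPKM (median 39.9) in OWT-BV mice. The Isg15 levels of H3F-HC mice ran from 26.1 to 291 RPKM (median 88.3), and those of H3F-BV mice from 13.2 to 169 RPKM (median 42.3). OWT-HC-107A and H3F-HC-117B were the highest mice of their groups. Usp18, the protease that removes ISG15 and damps the type I receptor, ran from 0.348 to 2.83 RPKM (median 0.606) in young mice. For Usp18 the lowest, median and highest values were 1.06, 20.03 and 60.5 RPKM in OWT-HC and 3.74, 14.2 and 46.7 RPKM in OWT-BV mice. Those of Usp18 were 11.5, 23.6 and 66.4 RPKM in H3F-HC and 6.71, 14.3 and 43 RPKM in H3F-BV mice. The old minus young difference in the homecage was 4.21 ± 0.87 for Isg15 and 3.47 ± 0.73 for Usp18. Herc6, the main ISG15 ligase of the mouse, reached 24.7 RPKM in H3F-HC, from a young median of 0.892 RPKM.

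Guanylate-binding proteins are GTPases that coat the vacuoles of pathogens and are strongly induced by interferon gamma. Gbp2 ran from 0.998 to 2.80 RPKM (median 2.06) in young mice. Gbp2 ran from 1.91 to 325 RPKM (median 118.97) in OWT-HC and from 15.4 to 85 RPKM (median 20.7) in OWT-BV mice. The Gbp2 levels of H3F-HC mice ran from 9.93 to 393 RPKM (median 173), and those of H3F-BV mice from 9.75 to 191 RPKM (median 15.8). Of the 8 trained HDAC3flox/flox mice, H3F-BV-113D alone lay above the homecage median. Gbp3 ran from 1.26 to 3.16 RPKM (median 1.65) in young mice. For Gbp3 the lowest, median and highest values were 1.99, 44.8 and 72.9 RPKM in OWT-HC and 13.9, 18.6 and 52.4 RPKM in OWT-BV mice. Those of Gbp3 were 11.6, 45.3 and 102.4 RPKM in H3F-HC and 7.16, 15.4 and 53.6 RPKM in H3F-BV mice. The trained minus homecage difference of Gbp2 was -1.40 ± 1.02 in old wildtype and -2.16 ± 0.73 in old HDAC3flox/flox mice, and that of Gbp3 was -0.47 ± 0.72 and -1.18 ± 0.45. Without OWT-HC-110A the old wildtype differences were -2.40 ± 0.51 for Gbp2 and -1.20 ± 0.32 for Gbp3. Gbp4, Gbp5 and Gbp7 had homecage medians of 15, 42 and 24.2 RPKM in old wildtype mice and 18.4, 45.9 and 18.4 RPKM in HDAC3flox/flox mice. After OLM the medians were 2.16, 7.40 and 6.99 RPKM and 1.76, 7.23 and 6.16 RPKM.

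Immunity-related GTPases act with the guanylate-binding proteins at vacuoles. Igtp (also called Irgm3), a regulatory member, ran from 1.17 to 3.20 RPKM (median 1.68) in young mice. Igtp ran from 2.19 to 248 RPKM (median 157) in OWT-HC and from 18.2 to 135 RPKM (median 64.1) in OWT-BV mice. The Igtp levels of H3F-HC mice ran from 10.9 to 361 RPKM (median 165), and those of H3F-BV mice from 8.58 to 166 RPKM (median 20.00). It had the largest old minus young difference of the 39 genes in the homecage, 5.13 ± 0.94 on the log2 scale. Irgm1, another regulatory member, ran from 3.08 to 5.77 RPKM (median 3.89) in young mice. For Irgm1 the lowest, median and highest values were 4.34, 139.9 and 194 RPKM in OWT-HC and 31.5, 52.4 and 125.2 RPKM in OWT-BV mice. Those of Irgm1 were 22.7, 140.1 and 275 RPKM in H3F-HC and 14.6, 30.8 and 152 RPKM in H3F-BV mice. Iigp1, an effector member, and Irgm2 had young medians of 0.789 and 1.16 RPKM and reached 165 and 76 RPKM in H3F-HC. Igtp and Irgm2 have overlapping exons on chromosome 11 and share 11.8% of the 50-base stretches of Igtp, so their values are not fully separate.

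Parp9 and its partner Dtx3l form a complex that joins ADP-ribose and ubiquitin to proteins, and they share a start region on chromosome 16. Parp9 ran from 0.895 to 1.51 RPKM (median 1.19) in young mice. For Parp9 the lowest, median and highest values were 1.37, 14.4 and 22.1 RPKM in OWT-HC and 3.04, 6.28 and 13.8 RPKM in OWT-BV mice. Those of Parp9 were 4.42, 16.2 and 31.4 RPKM in H3F-HC and 2.79, 5.44 and 20.2 RPKM in H3F-BV mice. Dtx3l followed it closely, with young values from 1.17 to 1.66 RPKM (median 1.39). For Dtx3l the lowest, median and highest values were 1.46, 14 and 21.8 RPKM in OWT-HC and 2.93, 5.80 and 15.8 RPKM in OWT-BV mice. Their exons overlap on opposite strands, and a count that ignores strand cannot assign the shared reads. Parp14, an ADP-ribosyltransferase next to both, had medians of 0.535 RPKM in young mice, 14.7 and 4.37 RPKM in old wildtype and 11.5 and 4.26 RPKM in old HDAC3flox/flox mice.

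Of the remaining interferon-induced genes, Ifi27, which encodes a small mitochondrial protein, was already high in young mice and ran from 19.4 to 51.6 RPKM (median 24). Ifi27 ran from 28.4 to 101.7 RPKM (median 85.7) in OWT-HC and from 68 to 129.03 RPKM (median 92.6) in OWT-BV mice. The Ifi27 levels of H3F-HC mice ran from 81.1 to 211 RPKM (median 109.6), and those of H3F-BV mice from 64.6 to 159 RPKM (median 81.6). Its old minus young difference in the homecage, 1.22 ± 0.29, was the smallest of the 39 genes. It was also the only gene of the 39 with a higher mean after OLM in old wildtype mice (0.37 ± 0.29, not called). Rtp4, a chaperone for membrane receptors, ran from 0.616 to 2.58 RPKM (median 1.06) in young mice. For Rtp4 the lowest, median and highest values were 2.09, 28.9 and 55.5 RPKM in OWT-HC and 8.08, 18.7 and 37.8 RPKM in OWT-BV mice. Those of Rtp4 were 11.7, 32 and 67.1 RPKM in H3F-HC and 7.24, 14.6 and 39.95 RPKM in H3F-BV mice. Ifi35 and Xaf1, which encode a signalling regulator and a partner of the apoptosis inhibitor XIAP, had young medians of 1.69 and 1.56 RPKM and OWT-HC medians of 19.6 and 14.3 RPKM. Ifi44 had a median of 0.254 RPKM in young and 9.40 RPKM in OWT-HC mice.

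To compare old with young wildtype mice, log2(RPKM + 0.5) was fitted with limma over all 14173 genes that passed the filter, and a call needed a p under 0.05 together with an adjusted p (Benjamini-Hochberg, over all genes) under 0.15. In the homecage, 39 of the 39 genes were called higher, where 32.1% of all genes tested were called higher (4552 genes, with 2511 lower). The log2 fold changes ran from 1.22 (Ifi27) to 5.13 (Igtp), with a median of 3.22 against 0.05 over all genes. After OLM, 39 of the 39 genes were again called higher, with 19.1% of all genes called higher (2712, with 1248 lower), and the median was 2.55 against 0.03 over all genes. By the smallest p, Irf9 (2.76 ± 0.45), Oasl2 (4.54 ± 0.79), Oas1a (3.22 ± 0.56), Rtp4 (3.48 ± 0.61) and Stat2 led in the homecage, and Gbp3 (3.40 ± 0.25), Rtp4 (3.54 ± 0.28), Irgm1 (3.76 ± 0.31), Bst2 and Oasl2 after OLM. Both comparisons are among those the choice of genes rested on, so nothing is read from these counts. The split of all genes between higher and lower calls moved with the scaling, to 3640 and 3445 with median-ratio scaling and to 2453 and 5311 with quantile normalization in the homecage, and to 2382 and 1694 and to 1760 and 3150 after OLM. Quantile normalization moved the homecage median of all genes to -0.10, a shift of over 0.1 on the log2 scale, and the median of the 39 genes to 2.93, with 39 of 39 still called higher in each setting. Without OWT-HC-110A the homecage median of the 39 genes was 3.84.

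**Figure D4:**
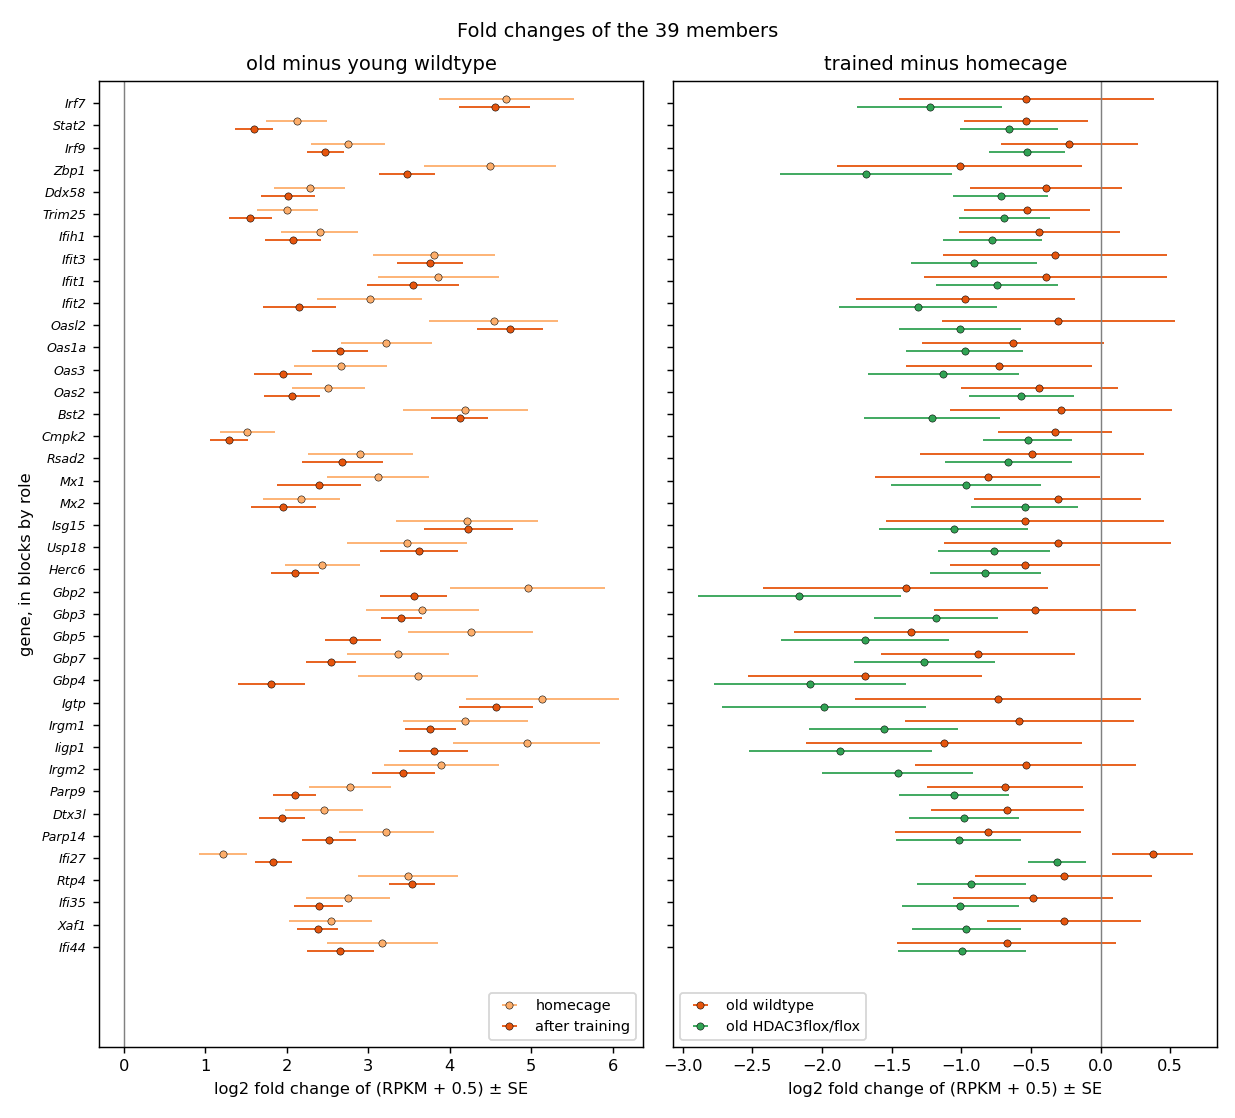
Log2 fold changes of (RPKM + 0.5) of the 39 genes with their standard errors from limma, for old minus young wildtype (left) and trained minus homecage in each old genotype (right). On the left, points run from 1.22 to 5.13. On the right, all points lie below 0 except Ifi27 in old wildtype mice (0.37), and Gbp2 and Gbp4 in HDAC3flox/flox mice lie farthest from 0.

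Whether the groups overlapped was also counted. In the homecage, 3 of the 39 genes (Stat2, Oas3 and Gbp5) had every old wildtype mouse above every young one, against 9.07% of all genes, and OWT-HC-110A was the lowest old mouse in each. After OLM, 38 of the 39 genes had no overlap, against 7.42% of all genes, the exception being Ifit2. With OWT-HC-110A set aside after its values were seen, 37 of the 39 genes were higher in each of the other 27 old libraries, wildtype and HDAC3flox/flox, than in any of the 12 young ones, against 3.77% of all genes. The other 2 were Ifit2 and Mx2, at the borders given above.

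Trained and homecage young mice differed little in these genes. The log2 fold changes ran from -0.55 (Isg15) to 0.10 (Gbp4), with a median of -0.11, and 33 of 39 were below 0. None of the 39 was called higher or lower, against 0.31% and 0.113% of all genes (44 higher and 16 lower). The shares of all genes rested on single mice, with 3.56% higher and 3.25% lower without YWT-BV-1923 and 0.0353% and 0% without YWT-HC-1907, and no member was called in either case. With all mice, the regularized t on RPKM called none of the 39. Dtx3l alone had an unadjusted p under 0.05 (-0.15 ± 0.06, adjusted p = 0.42 from limma), against 1441 of all 14173 genes. Isg15 (-0.55 ± 0.27), Rsad2 (-0.27 ± 0.15), Cmpk2 (-0.10 ± 0.06) and Irf7 (-0.39 ± 0.22) followed in order of p.

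In old wildtype mice, 38 of 39 genes had a lower mean after OLM than in the homecage, and none was called, as was true of all 14173 genes (0% higher and 0% lower). The median log2 fold change was -0.54. At an unadjusted p under 0.05, 0 of the 39 genes and 4.39% of all genes were lower. The regularized t on RPKM called 22 of the 39 lower, against 7.24% of all genes. The smallest p belonged to Gbp4 (-1.69 ± 0.84, adjusted p = 0.53 from limma), Gbp5 (-1.36 ± 0.84), Gbp2 (-1.40 ± 1.02), Ifi27 (0.37 ± 0.29) and Gbp7 (-0.88 ± 0.70). OWT-HC-110A decided this result. Without it, 20 of the 39 genes were called lower, against 10.1% of all genes, and the median was -1.17. The differences of Gbp4, Gbp5 and Gbp7 were then -2.44, -2.16 and -1.54, and that of Ifi27 was 0.12. These 20 included 5 of the 5 guanylate-binding proteins, 4 of the 4 immunity-related GTPases, 3 of the 3 of the Parp9 group, 2 of the 4 sensors and 1 gene of each other role.

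In old HDAC3flox/flox mice, 39 of 39 genes had a lower mean after OLM, with a median log2 fold change of -0.995 against -0.01 over all genes. None of the 39 and none of the 14173 genes was called (0% higher and 0% lower), and the smallest adjusted p of the 39 was 0.24 (limma). At an unadjusted p under 0.05, 24 of the 39 genes were lower, against 12.5% of all genes, and the regularized t on RPKM called 35 of the 39 lower, against 8.61%. The largest differences were those of Gbp2 (-2.16 ± 0.73), Gbp4 (-2.09 ± 0.69), Igtp (-1.98 ± 0.73), Iigp1 (-1.87 ± 0.66), Gbp5 (-1.69 ± 0.60) and Zbp1 (-1.68 ± 0.62). Irgm1, with -1.56 ± 0.54, was among the 5 smallest p, and the smallest differences were those of Ifi27 (-0.31 ± 0.21) and Cmpk2 (-0.52 ± 0.32). H3F-HC-112B, lowest of its group, and H3F-BV-113D, highest of its group, each decided the count. It was 30 of 39 without H3F-HC-112B, against 11.8% of all genes, and 29 of 39 without H3F-BV-113D, against 15.4%. An alternative chosen after the data were seen left out H3F-HC-121B and H3F-BV-108D, the mice with the least Prox1. None of the 39 was then called and their median was -1.16. The share of all genes called in that fit is not given, so nothing is read from this count. No gene of the 39 had every homecage mouse above every trained mouse, in old wildtype (0.12% of all genes) or in HDAC3flox/flox mice (0.00706% of all genes).

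The roles differed in size. In old HDAC3flox/flox mice the trained minus homecage median was -1.69 for the 5 guanylate-binding proteins and -1.71 for the 4 immunity-related GTPases, against -0.66 for the transducers, -0.75 for the sensors, -0.91 for the Ifit family, -0.99 for the oligoadenylate synthetases, -0.66 for the other antiviral effectors, -0.83 for ISG15 conjugation, -1.02 for the Parp9 group and -0.96 for the remaining interferon-induced genes. In old wildtype mice the guanylate-binding proteins had a median of -1.36 and the immunity-related GTPases -0.66, and the other 30 genes had a median of -0.49. Without OWT-HC-110A these medians were -2.16, -1.58 and -1.07. These are descriptions of lists grouped after values were known, and the difference between roles was not tested.

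Single trained mice differed in which roles were high. The mean level of the 9 guanylate-binding proteins and immunity-related GTPases was 3.64 in OWT-BV-104C and 4.19 in OWT-BV-116C, while the other 30 genes stood at 2.15 and 2.72 there, the lowest of the group. In OWT-BV-109C and OWT-BV-127C the order was turned, with 3.36 and 3.37 for the 9 GTPase genes, the lowest of the group, and 3.61 and 3.58 for the other 30. In H3F-BV, H3F-BV-113D was highest in 25 of the 39 genes, among them all 9 GTPase genes, and H3F-BV-108D in 13, among them Isg15, Ifit1, Ifit3, Oasl2, Mx1, Rsad2 and Irf7. In the old wildtype homecage group, OWT-HC-129A rather than OWT-HC-107A was the highest mouse for Gbp2, Gbp4, Gbp5, Igtp, Iigp1 and Irgm2.

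Deletion of Hdac3 was compared between old genotypes. In the homecage, 39 of 39 genes had a higher mean in HDAC3flox/flox than in old wildtype mice, with a median of 0.51, and none was called (0% of all genes were called higher and 0.127% lower). Ifi27 (0.70 ± 0.27, adjusted p = 0.35 from limma) was the only gene of the 39 with an unadjusted p under 0.05, against 1800 of all 14173 genes. Irf7 (0.95 ± 0.80), Ifit3 (0.82 ± 0.71), Mx2 (0.55 ± 0.49) and Oas3 (0.72 ± 0.66) came next in order of p. The regularized t on RPKM called 1 of the 39 higher, against 1.75% of all genes. The model of all 40 libraries also called 1 higher, against 1.62%. The direction rested on OWT-HC-110A, without which the median was -0.14. After OLM the median was -0.02, with 20 genes below 0 and 19 above, and again none was called (0.0141% of all genes higher and 0.254% lower; 0 of the 39 and 674 of all genes at an unadjusted p under 0.05). The smallest p there were those of Irgm2 (-0.66 ± 0.56), Igtp (-0.74 ± 0.72), Irgm1 (-0.47 ± 0.52), Oas2 (0.37 ± 0.44) and Ifi44 (0.39 ± 0.51).

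The training effect in HDAC3flox/flox mice minus that in old wildtype mice was tested as an interaction. It was below 0 for 39 of 39 genes, with a median of -0.39, and none was called, as for all genes (0% in each direction). No gene of the 39 had an unadjusted p under 0.05, against 596 of all genes, and the regularized t called none. Ifi27 had the smallest p (-0.68 ± 0.36, adjusted p = 0.997 from limma), followed by Xaf1 (-0.70 ± 0.68), Bst2 (-0.93 ± 0.93), Irgm1 (-0.97 ± 0.98) and Igtp (-1.25 ± 1.28). Without OWT-HC-110A the median turned to 0.19. The standard errors, from 0.36 for Ifi27 to 1.28 for Igtp, leave room for differences of either sign.

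The rest of the pathway was followed in lists of genes that are not among the 39. Of 23 interferon ligand genes, 7 were in the table and only Ifng passed the filter. Ifng, interferon gamma, was above 0 in 1 of 12 young mice, in 5 of 6 OWT-HC, 4 of 6 OWT-BV, 7 of 8 H3F-HC and 5 of 8 H3F-BV mice. It ran from 0 to 5.64 RPKM in OWT-HC, where OWT-HC-129A was the highest and OWT-HC-110A was at 0, and from 0 to 0.48 RPKM in OWT-BV. In H3F-HC it ran from 0 in H3F-HC-112B to 2.66 RPKM in H3F-HC-117B, and in H3F-BV from 0 to 1.63 RPKM in H3F-BV-113D. It passed the filter only through the old mice, so its old minus young difference of 1.39 ± 0.50 on the log2 scale in the homecage is given with no call. Without OWT-HC-110A that difference was 1.67. The trained minus homecage difference of Ifng in old wildtype mice was -1.09, and -1.37 without OWT-HC-110A, also given with no call. Ifnb1, interferon beta, stood at 0.61 RPKM or less in every library and did not pass the filter. It was at 0 in 5 of 6 YWT-HC and 6 of 6 YWT-BV mice. In old mice it was at 0 in 3 of 6 OWT-HC, 1 of 6 OWT-BV, 2 of 8 H3F-HC and 2 of 8 H3F-BV. Its medians were 0.027 RPKM in OWT-HC and 0.080 RPKM in OWT-BV. These differences were not tested.

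The counts of the lists stand against the 32.1% of all genes that were called higher in old mice in the homecage and the 19.1% after OLM. Of 5 receptor genes tested, 4 were called higher in the homecage and 4 after OLM. They included Ifnar2 (0.94 ± 0.19 in the homecage), a subunit of the type I receptor, and Ifngr1 (1.24 ± 0.30), the ligand-binding subunit of the gamma receptor. Of 6 other interferon regulatory factors, 6 and 4 were called higher, with Irf1 at 3.34 ± 0.58 and Irf8, a factor of myeloid cells, at 3.38 ± 0.58 in the homecage. Of 9 adaptors and kinases of nucleic acid sensing, 8 were called higher and 1 lower (Traf3, -0.23 ± 0.06) in the homecage, and 5 were called higher after OLM. Tmem173, which encodes STING, differed by 2.14 ± 0.44 and Dhx58, which encodes the RIG-I relative LGP2, by 2.82 ± 0.54 in the homecage. Of 6 inhibitors, 4 and 3 were called higher, among them Socs1 (2.96 ± 0.60) and Socs3 (3.35 ± 0.66), which block JAK kinases. Socs1, with means of 0.385 RPKM in YWT-HC and 0.391 RPKM in YWT-BV, passed the filter only through the old mice. So did Dhx58, with 0.554 and 0.417 RPKM, and nothing is read from the calls of these genes. Of 50 other interferon-induced genes known from the literature, 50 and 49 were called higher, with medians of 2.75 and 2.02, and 21 of the 50 passed the filter only through the old mice, as did 1 of the factors, 3 of the adaptors and kinases and 2 of the inhibitors. The 50 included the immunoproteasome subunit Psmb8 (4.47 ± 0.72 and 3.88 ± 0.29). None of these genes was called after training in either old genotype with all mice in the fit. Without OWT-HC-110A, 2 of 5 receptor genes, 4 of 6 regulatory factors, 5 of 9 adaptors and kinases, 4 of 6 inhibitors and 35 of the 50 other genes were called lower in old wildtype mice, against 10.1% of all genes. In the homecage comparison of old with young, the counts called higher without it were 5, 6, 8, 5 and 50, against 35.1%. The median of the 50 genes was then 3.24. In young mice, 1 inhibitor, the mitochondrial regulator Nlrx1, was called lower after training (-0.27 ± 0.06, adjusted p = 0.13 from limma).

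Markers of lymphocytes, monocytes and microglia had higher median sums in the old groups than in the young groups, as the 39 genes had higher levels. Those of other cell types did not all do so. The summed level of 13 T and NK cell markers was 0.49 to 1.23 RPKM in the young mice, where the T cell receptor subunits Cd3d, Cd3e and Cd3g were at 0 in 7, 6 and 8 of 12 libraries. Of the 13, 12 passed the filter only through the old mice, so no count of calls is given. The sum ran from 1.21 RPKM in OWT-HC-110A to 152 in OWT-HC (median 57.2), from 4.26 to 53.5 in OWT-BV (median 10.4), from 8.22 to 127.2 in H3F-HC (median 59.6) and from 4.20 to 127.1 in H3F-BV (median 11.9). The 7 markers of monocytes and infiltrating macrophages ran from 0.72 to 2.45 RPKM in young mice, and had medians of 124.2 and 12.8 RPKM in old wildtype and 152 and 8.10 RPKM in old HDAC3flox/flox mice. The 7 markers of B and plasma cells had medians of 43.7 and 5.40 RPKM and of 94.5 and 2.25 RPKM in those groups, against 1.28 RPKM or less in young mice. Their sums ran from 0.90 to 660 RPKM in OWT-HC and from 1.32 to 503 RPKM in OWT-BV. In H3F-HC they ran from 2.99 to 831 RPKM and in H3F-BV from 0.41 to 1281 RPKM. Jchain had a mean of 92.6 RPKM over all libraries and each other marker 12.3 RPKM or less, so 1 gene dominated the mean sum. The 12 microglia markers were above 0 in every library, at 168 to 196 RPKM in young mice, 187 RPKM in OWT-HC-110A and medians of 453, 340, 503 and 310 RPKM in the 4 old groups. In old against young wildtype mice, 7 of the 12 were called higher and 1 lower in the homecage (8 and 1 without OWT-HC-110A). After OLM, 9 were called higher and 1 lower, against 19.1% of all genes higher. In old against young homecage mice, 3 of 10 astrocyte markers were called higher and 4 lower (4 and 4 without OWT-HC-110A). Gfap, which encodes an intermediate filament of astrocytes, had a mean of 94.7 RPKM in YWT-HC and 426 RPKM in OWT-HC. Of 10 markers each, 4 of neurons and 5 of oligodendrocytes were called lower and none higher (6 and 5 lower without OWT-HC-110A). Their median log2 fold changes were -0.15 and -0.51. Of 10 endothelial markers, 1 was called higher and 2 lower (3 and 2 without OWT-HC-110A). Of 8 choroid plexus markers, 6 were called lower (median -1.92), and 5 without OWT-HC-110A. Of all genes, 32.1% were called higher in this comparison, and the number called lower is given above. The part of these cells in the levels of the 39 genes was not tested.

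**Figure D5:**
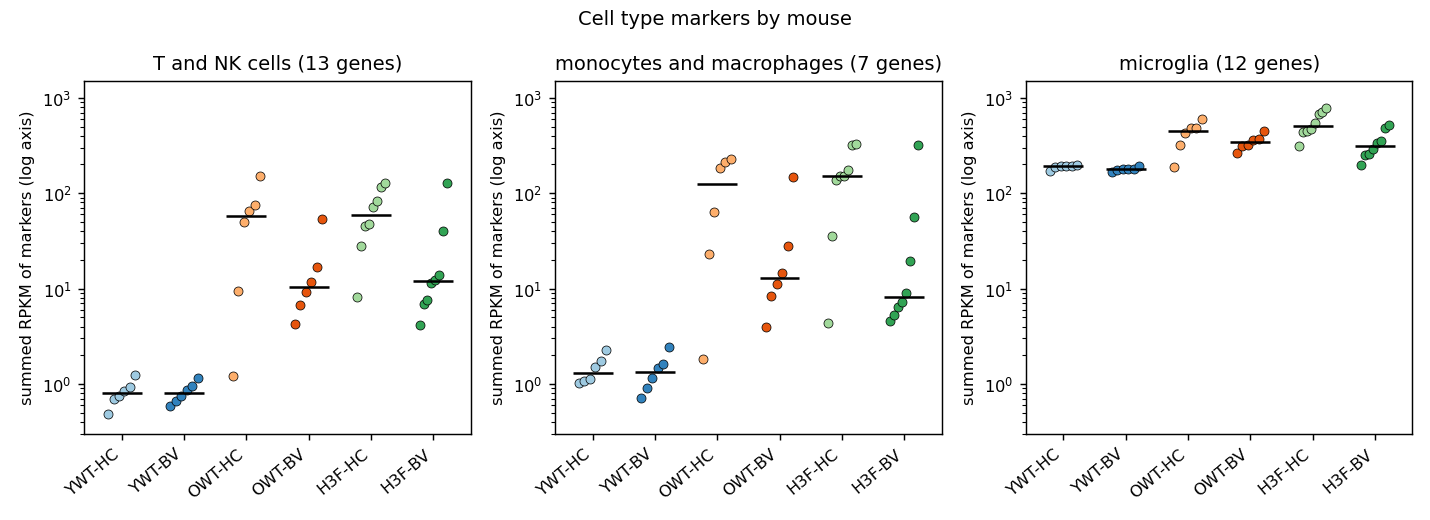
Summed RPKM, on a log axis, of the markers of T and NK cells, of monocytes and infiltrating macrophages, and of microglia in each mouse. Points are mice, lines are group medians. The lymphocyte and monocyte sums span 2 orders of magnitude among old mice and are lower at the median after OLM, and OWT-HC-110A lies next to the young mice in each panel.

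Some members share sequence with a near copy. Only reads placed at 1 position were kept by the authors, so reads from stretches shared with a relative were not counted. Ifit3 shares 51.2% of its 50-base stretches with Ifit3b and Oas1a 57.6% with Oas1g, while Gbp7, Herc6, Igtp, Rtp4 and Ifi35 share between 10.4% and 12.7% with other annotated transcripts. The levels of Ifit3 and Oas1a are therefore uncertain and may be understated. Stretches were compared between transcripts and not by genome position, so overlapping transcripts at 1 place, such as Igtp and Irgm2, also count as sharing. Whether Gbp7, Herc6, Igtp, Rtp4 and Ifi35 lost reads in this way was not tested.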

How the data were processed

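Dorsal hippocampus RNA of 40 mice (6 groups of 6 to 8) was sequenced from poly(A) libraries as single 50-base reads. Per the labels and the methods of the study, the authors used CASAVA 1.8.2, ELAND and Bowtie2, aligned to mm10, kept reads with 1 position and deposited RPKM values for 20953 genes. A second deposited table holds the same RPKM with the authors' means, p-values and other comparison columns, which were not used here. The files hold no counts, so depth was estimated from the steps between low values of short RNA genes, and no counting interval is given. Groups were taken from the sample labels. Libraries carry separate mouse numbers, and the p-values measure the spread between these mice.

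RPKM was transformed to log2(RPKM + 0.5), genes with a mean under 0.5 RPKM were dropped (14173 kept), and limma 3.58.1 in R 4.3.3 was fitted to the groups compared, with a mean-dependent prior and two-sided tests. A call needed p under 0.05 together with an adjusted p (Benjamini-Hochberg, over all genes) under 0.15. The fit was also run on simulated data in which genes varied independently of one another. That run does not cover single mice that stand apart in many genes at once. Alternatives tried were a pseudocount of 0.1 or 1, the filter removed or set at 1 RPKM, median-ratio and quantile scaling, an adjusted p of 0.05, 1 model of 40 libraries, library weights, a regularized t on RPKM (window 101, prior weight 24) and leaving out each mouse. Promoters and positions came from RefSeq and the GRCm38 annotation. Protein sequences were not used here.

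The members and lists were chosen with earlier results of these data known. Values are given in full for the 2 members of each role with the highest mean RPKM and for the members with the 5 smallest p in each comparison. Other members are given by range, median and count or as an extreme. Of each pathway list, at most 4 called genes per comparison are named, by smallest p, and any other gene named was chosen after its values were seen. One further pathway list is not reported here.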

Additional observations from a re-analysis of the deposited data

Results flagged for a closer look

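The level of each gene and of the 39 genes together was checked within each of the 6 groups for a mouse set far apart from the others of its group (Dixon's test at 95%). Of 240 series checked, 42 held such a mouse, where chance gives about 1 in 20, and the series are not independent because the genes ranked the mice alike. In 28 of the 42 it was OWT-HC-110A, the lowest of the old wildtype homecage mice. On the log2(RPKM + 0.5) scale its mean over the 39 genes was 1.03, and the genes concerned were Irf7 at 1.42, Irf9 at 2.19, Zbp1 at -0.55, Ifit1 at 1.14, Ifit2 at 1.30, Ifit3 at 1.89, Oas1a at -0.23, Oasl2 at 1.75, Bst2 at 2.95, Isg15 at 1.42, Usp18 at 0.64, Gbp2 at 1.27, Gbp3 at 1.32, Gbp4 at -0.24, Gbp5 at 0.72, Gbp7 at 0.84, Iigp1 at 0.60, Igtp at 1.43, Irgm1 at 2.28, Irgm2 at 0.96, Parp9 at 0.90, Parp14 at 0.31, Dtx3l at 0.97, Ifi44 at -0.53, Ifi35 at 1.34, Xaf1 at 0.95 and Rtp4 at 1.37. The other 5 mice of that group lay between 4.28 and 5.60 in the mean level.

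Among young trained mice, YWT-BV-1915 was set apart as the highest for Ifit1 at 1.98, Ifit3 at 2.31, Mx1 at -0.44, Iigp1 at 1.02 and Parp14 at 0.37, and YWT-BV-1923 as the highest for Trim25 at 1.08, Bst2 at 3.50 and Ifi27 at 5.70. Among young homecage mice, YWT-HC-1907 was the lowest for Stat2 at 2.47. In old HDAC3flox/flox homecage mice, H3F-HC-112B was the lowest for Igtp at 3.51, Irgm1 at 4.54 and Irgm2 at 2.59, all immunity-related GTPases. H3F-BV-113D was the highest trained HDAC3flox/flox mouse for Gbp4 at 4.79, and OWT-BV-103C was the highest trained old wildtype mouse for Stat2 at 5.41.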

How the results depend on the processing

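In both comparisons of old with young wildtype mice, 39 of the 39 genes were called higher under every alternative run. After OLM their median log2 fold change was 3.37 with a pseudocount of 0.1, against 2.55. In young mice no member was called after training under any alternative.

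The training counts in old mice depended on the setting. In old wildtype mice the number of genes called lower was 0, but 3 with library weights (12.4% of all genes), 22 with the regularized t on RPKM (7.24%) and 0 to 20 when 1 mouse was left out, with 20 without OWT-HC-110A (10.1%). In old HDAC3flox/flox mice it was 0, but 22 in the model of all 40 libraries (16.1% of all genes), 39 with library weights (30% of all genes lower and 20.7% higher), 35 with the regularized t (8.61%) and 0 to 30 when 1 mouse was left out, with 30 without H3F-HC-112B (11.8%) and 29 without H3F-BV-113D (15.4%). For HDAC3flox/flox against old wildtype mice in the homecage, 1 gene was called higher in the model of all 40 libraries (1.62% of all genes) and 1 with the regularized t (1.75%), against 0.

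Some medians changed sign. In the homecage genotype comparison (0.51) the range without 1 mouse was -0.14 to 0.76, the lowest without OWT-HC-110A. After OLM (-0.02) the median was 0.012 with median-ratio and 0.012 with quantile scaling, and -0.23 to 0.24 without 1 mouse, being above 0 with OWT-BV-103C left out (0.24), with OWT-BV-106C left out (0.07) and with any of 5 H3F-BV mice left out (up to 0.12). The interaction median (-0.39) ran from -0.68 to 0.19, the highest without OWT-HC-110A. Apart from the values given here, 392 counts stayed equal or close to those reported, and 1120 other values were held as unchanged. For single genes that meant the same direction and side of the threshold. For medians it meant the same sign and a move smaller than the mean SD of the level between mice. The old wildtype training median, -0.54 with all mice and -1.17 without OWT-HC-110A, was within that allowance. A further 28 values of single genes passed the threshold only under the alternative. The cause of these changes was not tested. No paired analysis was possible because the groups share no replicate numbers. Depth is known only as an estimate, which limits statements on members near 0 RPKM in young mice.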

Other observations

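Ifi27 did not rank the mice of H3F-HC, OWT-BV and OWT-HC as most other members did. In H3F-BV it did not stand apart at the low end. There each of the 39 genes, Ifi27 included, was lowest in H3F-BV-102D (32 genes) or H3F-BV-119D (7 genes). H3F-HC-117B was the highest of its group in 38 of the 39 genes and the lowest in Ifi27 (81.1 RPKM), and H3F-HC-111B, next in mean level of the 39 genes (5.55), was next lowest in Ifi27 (87.5 RPKM). OWT-BV-103C, highest of its group in 35 genes, was likewise the lowest in Ifi27 (68.0 RPKM). Among homecage old wildtype mice, OWT-HC-107A was the highest in 32 genes and, at 59.4 RPKM, the lowest in Ifi27 after OWT-HC-110A (28.4 RPKM).

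Young homecage mice also differed among themselves. YWT-HC-1905 and YWT-HC-1940 had mean levels of 1.27 and 1.28 on the log2(RPKM + 0.5) scale, against 0.56 to 0.88 in the other 4, and were the highest of their group in 17 and 19 of the 39 genes. These values were picked out after the data were seen and were not tested.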
